A study of Mus musculus with 155 samples.

Results

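The 10 genes described here are Myc, Mycn, Lin28a, Lin28b, Trim71, Igf2bp1, Igf2bp2, Igf2bp3, Hmga1 and Hmga2, which were taken by name from the 55471 genes counted in each RNA-seq table of the series. They are growth regulators of the embryo that pluripotent cells and early fetal tissues use and that many tumors switch on again, and they were followed here to ask whether such genes stayed on in differentiated cells carrying mutant H3.3. Myc and Mycn encode transcription factors that, paired with Max, drive genes of ribosome production, metabolism and cell division. Lin28a and Lin28b encode RNA-binding proteins that block the maturation of let-7 microRNAs, and let-7 in turn represses many growth genes, Lin28b and Hmga2 among them. Trim71 encodes an RNA-binding protein of stem cells and is a classical let-7 target. The Igf2bp genes encode proteins that bind and stabilize mRNAs, Igf2 and Myc mRNAs among them, and the Hmga genes encode small chromatin proteins that bind AT-rich DNA.

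RNA was sequenced in 42 of the 155 samples of the series, and these 42 libraries were used here. All came from KH2 mouse embryonic stem cells (ESCs) in which doxycycline (Dox) induced a single extra copy of SNAP- and HA-tagged H3.3, and Dox was given to all groups, the WT-H3.3 controls included. H3.3K27M carries methionine in place of lysine 27 and inhibits PRC2, the complex that methylates this lysine. H3.3K27L carries leucine there and served as a mutant without that inhibition. The ESCs were kept undifferentiated and made up 32 libraries, with WT-H3.3, H3.3K27M, H3.3K27L and GSK343, a PRC2 inhibitor given to WT-H3.3 cells, each sampled at 4, 8, 24 and 72 h of Dox, 2 libraries a time. Cells differentiated with retinoic acid (RA) gave 6 libraries, 1 a time for each of these lines, without GSK343, at 24 and 72 h of Dox. Oligodendrocyte progenitor cell (OPC) cultures gave 4 libraries, 1 for each of WT-H3.3 and H3.3K27M at 24 and at 72 h. The lines came from colonies selected with hygromycin, and the number of clones behind each group is not given in the sources used here. In the RA series Dox was added 1 day after RA, so that time in Dox and time in RA cannot be told apart.

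Total counts were 5295859 to 21161392 in 30 of the 32 ESC libraries, 2239137 to 22269533 in the RA libraries and 7499258 to 12387113 in the OPC libraries. A pair of ESC libraries stood apart in depth, 1 of GSK343 at 8 h with 1247934 counts and 1 of H3.3K27L at 72 h (replicate 2) with 68378 counts. Levels were expressed as CPM, counts scaled to a common library size. In the library of 68378 counts, 27.13 CPM of Myc were 2 reads, so values of H3.3K27L ESCs that rest on it are also given without it. Levels are compared within a gene only. A gene was said to rise or fall where edgeR's quasi-likelihood test gave a Benjamini-Hochberg adjusted p under 0.05 over all genes tested, and the study's own threshold also asks for a change above 2-fold. All 10 genes passed the filter on low counts in ESCs, in RA-treated cells and in the model over all libraries, and all but Lin28a passed it in OPCs. ESCs, RA-treated cells and OPCs were counted in separate tables with no library in common, and 3′ and whole-mRNA library kits were both used without a record of which library had which. A change between these states therefore cannot be told apart from a change of kit, culture or sequencing run. In all of these bulk libraries, fewer cells of a type and less RNA per cell cannot be told apart.

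The let-7 family is the link that joins most of these genes, so its sequence and its matches are shown first. let-7 itself was not measured. All 9 mature let-7 family members in RefSeq carry 1 seed, GAGGUAG at bases 2 to 8, shown in capitals for 4 of them.
mmu-let-7a-5p: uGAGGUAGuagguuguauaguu
mmu-let-7g-5p: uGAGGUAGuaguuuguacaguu
mmu-let-7i-5p: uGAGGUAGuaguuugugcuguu
mmu-miR-98-5p: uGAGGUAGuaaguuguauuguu
The letters that pair with this seed, CTACCTC, were searched on the transcript strand of the longest annotated 3′UTR of each gene and were found 19 times in 8 of the 10 genes. Of all 19915 annotated 3′UTRs, 8.81% held CTACCTC and 1.01% held it 2 or more times. The windows below are 23 bases of the transcript strand with the match in capitals, 1 for each of the 8 genes, at their NCBIM37 (mm9) positions, and all lie in the exonic 3′UTR.
Lin28a, chr4:133561097-133561119, minus strand: ctgttgaaCTACCTCatttttgc
Lin28b, chr10:45100821-45100843, minus strand: cgggaagtCTACCTCatgcaagc
Trim71, chr9:114421583-114421605, minus strand: cctaagtcCTACCTCagcttaaa
Igf2bp1, chr11:95820664-95820686, minus strand: gctattaaCTACCTCagccccag
Igf2bp2, chr16:22059539-22059561, minus strand: aataaaagCTACCTCaggtgttt
Igf2bp3, chr6:49036779-49036801, minus strand: ttactcaaCTACCTCaggtattc
Hmga1, chr17:27700229-27700251, plus strand: ttcacaaaCTACCTCtggacggt
Hmga2, chr10:119801273-119801295, minus strand: ttcaatttCTACCTCagcatcag
In every gene of this set but Hmga1, at least 1 match was followed by A, the base that extends a let-7 site. Lin28b, Igf2bp1 and Hmga2 held 4 matches each, Lin28a and Trim71 held 2, and Igf2bp2, Igf2bp3 and Hmga1 held 1. The 3′UTRs of Igf2bp1 (6337 bases), Lin28b (4445) and Hmga2 (3014) are long, and 34.47%, 25.35% and 17.64% of 3′UTRs of like length held a match. Trim71 has its 2 matches in 1370 bases, a length at which 11.02% of 3′UTRs held any. Myc and Mycn held no match in 466 and 910 bases. A match of letters is a description of these windows and says nothing of let-7 levels in the cells.

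The genes lie on 9 chromosomes, at these NCBIM37 positions. Myc (ENSMUSG00000022346) spans 61816946 to 61821929 on the plus strand of chromosome 15, and Mycn spans 12942902 to 12948720 on the minus strand of chromosome 12. Lin28a lies at 133559245 to 133574756 on chromosome 4 and Lin28b at 45096426 to 45206201 on chromosome 10, each on the minus strand. Trim71 lies at 114420393 to 114473487 on the minus strand of chromosome 9. Igf2bp1 spans 95818477 to 95867254 on chromosome 11, Igf2bp2 spans 22059082 to 22163372 on chromosome 16 and Igf2bp3 spans 49035220 to 49164953 on chromosome 6, all on the minus strand. Hmga1 lies at 27693565 to 27700619 on the plus strand of chromosome 17 and Hmga2 at 119798331 to 119913525 on the minus strand of chromosome 10. The letters CACGTG, the same on both strands and bound by Myc with Max, stood within 250 bases before to 50 after the start of Igf2bp3 and Lin28b, of 8 members matched to RefSeq promoters (GRCm38.p6), and in 7.24% of all 27025 promoters. They stood in 6 of 24 matched promoters of a list of 30 Myc targets.

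**Figure D1:**
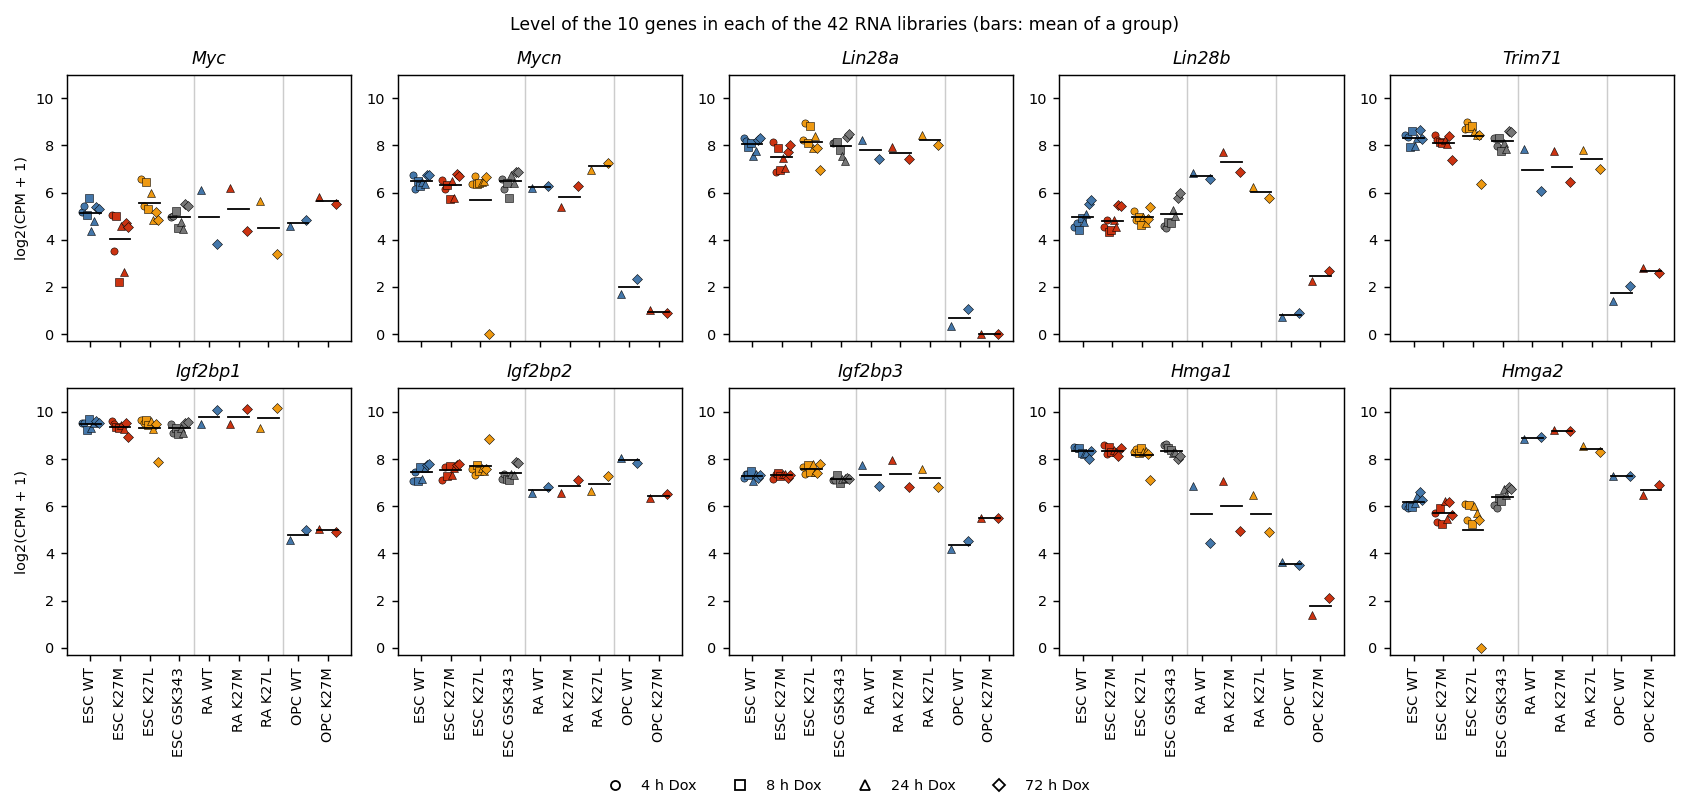
Level of each gene as log2(CPM + 1) in the 42 libraries, 1 point per library, with the Dox time as the marker shape and the group mean as a bar. Hmga2 and Lin28b sit higher and Hmga1 lower in RA-treated cells than in ESCs, and the means of 8 of the 10 genes sit lower in WT-H3.3 OPCs than in WT-H3.3 ESCs, with those of Igf2bp2 and Hmga2 higher. The 2 points at 0 among ESCs, in Mycn and Hmga2, are the library of 68378 counts.

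The first comparison asked whether the mutants changed these genes in undifferentiated ESCs. None of the 10 passed the test in H3.3K27M ESCs against WT-H3.3 ESCs, where 0.0142% of 14076 genes tested passed (2 genes, against 1612 at an unadjusted p under 0.05). The test did not pair libraries by replicate number. The ESC identity of the libraries was checked with 11 pluripotency markers, Pou5f1, Nanog and Sox2 among them, whose summed level was 5362 to 6910 CPM in WT-H3.3 and 5624 to 6990 CPM in H3.3K27M.

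Myc had the lowest values in H3.3K27M ESCs. In WT-H3.3 ESCs it ranged from 19.72 to 52.69 CPM with a median of 36.46 (35.81 ± 10.03 SD, n = 8), and in H3.3K27M ESCs from 3.664 to 31.9 CPM with a median of 22.68 (19.03 ± 11.14 SD, n = 8). The groups overlapped, and the log2 fold change was -0.90 with a standard error of 0.335 (edgeR, adjusted p = 0.296). At 4, 8 and 24 h the difference lay mostly in the second replicate. There Myc in H3.3K27M was 10.49, 3.664, 5.118 and 22.32 CPM at 4, 8, 24 and 72 h, against 41.82, 52.69, 26.85 and 38.23 CPM in WT-H3.3, so that H3.3K27M stood at 0.06954 to 0.5838 of WT-H3.3 at the same time. In the first replicate the ratio was 0.9196, 0.9674, 1.168 and 0.6117 at 4, 8, 24 and 72 h, and only 3 of 4 times lay below 1. At 72 h the ratios of the replicates were close, 0.6117 and 0.5838. Left without the first H3.3K27M replicate at 8 h, Myc passed (log2 fold change -1.453, adjusted p = 0.019), and without the filter on low counts it passed as well (-0.9351, adjusted p = 3.13e-07). That left 3.664 CPM as the only 8 h value of H3.3K27M in the first of these fits. Myc passed in 1 of 16 fits that left out 1 library and in 1 of 8 other alternatives.

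Lin28a ran the same way with a smaller difference. It was 186.4 to 315.9 CPM with a median of 279.0 in WT-H3.3 ESCs and 115.7 to 278.3 CPM with a median of 191.8 in H3.3K27M ESCs, and the groups overlapped. H3.3K27M lay below WT-H3.3 at the same time and replicate number in 8 of 8 pairs, at ratios of 0.4017 to 0.831 in the second replicate and 0.7113 to 0.9779 in the first. The log2 fold change was -0.47 ± 0.172 (SE; edgeR, adjusted p = 0.291), and Lin28a passed without the first H3.3K27M replicate at 4 h (-0.6586, adjusted p = 0.0454) and without the filter (-0.5019, adjusted p = 0.00533). Hmga2 was 58.97 to 96.39 CPM in WT-H3.3 and 37.0 to 73.04 CPM in H3.3K27M ESCs, with a log2 fold change of -0.44 ± 0.161 (adjusted p = 0.285), and it too passed without the filter (-0.479, adjusted p = 0.0305). Lin28a passed in 1 of 16 fits that left out 1 library and in 1 of 8 other alternatives, and Hmga2 in 0 of 16 and 1 of 8. For the other 7 genes the log2 fold changes were -0.19 for Trim71, -0.18 for Mycn, -0.17 for Lin28b, -0.13 for Igf2bp1, 0.01 for Igf2bp3, 0.04 for Hmga1 and 0.07 for Igf2bp2, with adjusted p of 0.563 to 0.998.

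**Figure D2:**
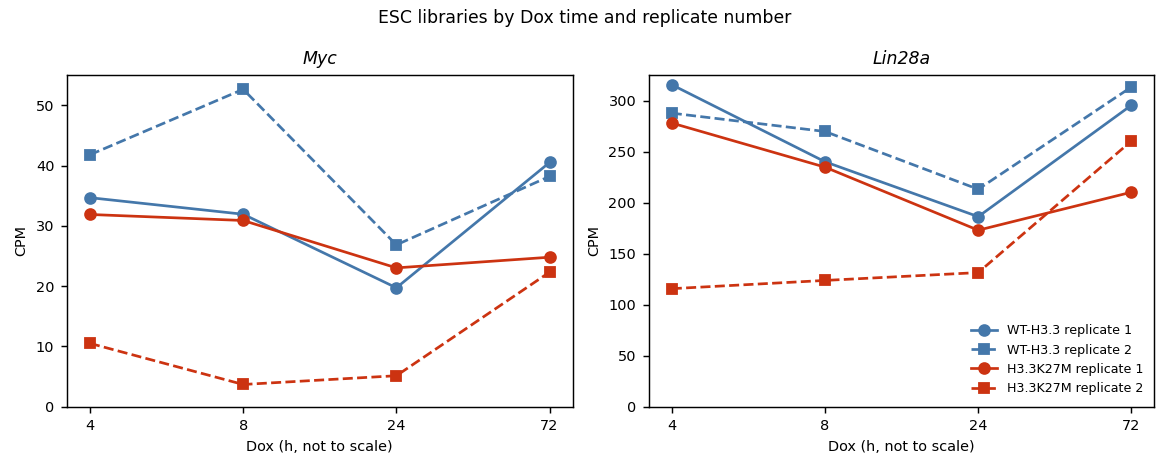
Myc (left) and Lin28a (right) in CPM against hours of Dox (evenly spaced, not to scale) in WT-H3.3 and H3.3K27M ESCs, 1 line per replicate number. The second H3.3K27M replicate lies lowest for Myc at every time and for Lin28a at 4, 8 and 24 h.

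H3.3K27L ESCs gave 0 of 10 genes past the test, where 8.11% of genes passed. Hmga2 came nearest, with 0 to 68.18 CPM and a median of 46.46 against 58.97 to 96.39 CPM in WT-H3.3. Its log2 fold change was -0.53 ± 0.169 (edgeR, adjusted p = 0.0535), and without the shallow library its mean was 52.47 ± 12.73 CPM (SD, n = 7). It passed without H3.3K27L replicate 1 at 4 h (adjusted p = 0.0316) or at 8 h (0.0243), without WT-H3.3 replicate 2 at 8 h (0.0462), with RLE size factors (0.0429) and without the filter (0.00289). Igf2bp3 was 162.1 to 222.1 CPM in H3.3K27L and 132.6 to 178.2 CPM in WT-H3.3, with a log2 fold change of 0.27 ± 0.0895 (adjusted p = 0.0693), and it passed without replicate 2 at 24 h of WT-H3.3 (0.0469) or of H3.3K27L (0.0442) and with chromosome 8 kept (0.0471). Deviations of same-numbered H3.3K27L and WT-H3.3 libraries ran against each other at 4, 8 and 24 h (r of -0.579, -0.689 and -0.66), and with H3.3K27L numbers swapped at those times and fitted as a block both genes passed, Hmga2 at -0.5288 (adjusted p = 0.0282) and Igf2bp3 at 0.2681 (0.0271). Myc in H3.3K27L differed between replicate numbers, at 93.27, 85.95, 62.65 and 34.78 CPM over the 4 times in the first and 41.61, 38.07, 27.68 and 27.13 CPM in the second, and its log2 fold change was 0.52 ± 0.341 (adjusted p = 0.38). The other 7 genes, with log2 fold changes of -0.09 for Igf2bp1, -0.08 for Hmga1, -0.07 for Lin28b, -0.06 for Mycn, 0.21 for Lin28a and 0.22 for each of Trim71 and Igf2bp2, had adjusted p of 0.353 to 0.86. Leaving out the library of 68378 counts changed none of these calls, and Mycn then averaged 89.24 ± 8.534 CPM (SD, n = 7), within the range of WT-H3.3.

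GSK343 left all 10 genes short of the test, as it did every gene in the table (0% of 14076 at an adjusted p under 0.05, with 621 at an unadjusted p under 0.05). The log2 fold changes ran from -0.18 for Igf2bp1 through -0.15 for Myc, -0.13 for Igf2bp3, -0.11 for Trim71, -0.05 for Igf2bp2, -0.03 for Lin28a, 0.0028 for Mycn, 0.04 for Hmga1 and 0.13 for Lin28b to 0.25 for Hmga2, with adjusted p of 0.975 to 1. Time in Dox was compared in WT-H3.3 ESCs as 24 and 72 h against 4 and 8 h, where 0.121% of genes passed and none of the 10 did. Lin28b had the largest difference of the set. Its replicates in WT-H3.3 were 22.04 and 24.98 CPM at 4 h, 20.24 and 29.42 at 8 h, 26.01 and 32.83 at 24 h, and 44.66 and 50.01 at 72 h, so that the 72 h libraries lay above all others of this group. Its log2 fold change was 0.63 ± 0.148 (edgeR, adjusted p = 0.0984). The others stood at -0.40 for Myc, -0.21 for Hmga1, -0.16 for Lin28a, -0.10 for Igf2bp3, -0.03 for Trim71, -0.00096 for Igf2bp1, 0.15 for Mycn, 0.25 for Igf2bp2 and 0.40 for Hmga2, with adjusted p of 0.665 to 1.

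RA-treated cells were then set against ESCs of the same line. In WT-H3.3 the summed pluripotency markers went from 5362 to 6910 CPM in ESCs to 198.2 to 292.1 CPM in RA. The growth genes split. Of the 10, 5 passed in WT-H3.3, 5 in H3.3K27M and 7 in H3.3K27L, where 60.6%, 63.3% and 60.6% of 16478 genes passed (26.7%, 29.9% and 27.8% higher and 33.8%, 33.3% and 32.8% lower). In all 3 lines Hmga2 and Lin28b rose and Hmga1, Trim71 and Igf2bp2 fell, the last of these at an adjusted p of 0.0561 to 0.0639 with RLE size factors (those of DESeq2). That scaling shifted the median of all genes up by 0.241 to 0.317 on the log2 scale in these comparisons.

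The Hmga genes went opposite ways. Hmga2, a chromatin protein of fetal progenitors, was 58.97 to 96.39 CPM in WT-H3.3 ESCs and 454.5 and 492.6 CPM in RA-treated WT-H3.3 cells at 24 and 72 h. It was 591.5 and 579.9 CPM in H3.3K27M and 377.1 and 314.6 CPM in H3.3K27L, so that all 6 RA libraries lay above all 32 ESC libraries. The log2 fold change from ESCs was 2.73 ± 0.2 in WT-H3.3 (edgeR, adjusted p = 1.24e-12), 3.48 ± 0.197 in H3.3K27M (3.5e-15) and 2.80 ± 0.209 in H3.3K27L (2.11e-12). Hmga1, its relative, was 258.4 to 360.7 CPM in WT-H3.3 ESCs and fell to 116.0 CPM at 24 h and 20.6 CPM at 72 h in RA. The mutants gave like values of 131.7 and 29.61 CPM (H3.3K27M) and 86.75 and 29.37 CPM (H3.3K27L), all below every ESC library. The log2 fold changes were -2.65 ± 0.215, -2.39 ± 0.208 and -2.60 ± 0.215, with adjusted p of 1.21e-11 to 4.82e-11.

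The Lin28 genes also differed in RA. Lin28b rose from 20.24 to 50.01 CPM in WT-H3.3 ESCs to 111.8 and 94.83 CPM, from 19.28 to 42.97 CPM to 206.7 and 115.7 CPM in H3.3K27M, and from 23.86 to 40.7 CPM to 75.25 and 54.19 CPM in H3.3K27L. No RA library overlapped with the ESCs of its line. The log2 fold changes were 1.78 ± 0.155 (adjusted p = 5.65e-11), 2.54 ± 0.148 (6.54e-15) and 1.15 ± 0.166 (7.88e-07) in that order. Lin28a in WT-H3.3 lay inside the ESC range at 24 h (295.3 CPM) and below it at 72 h (170.8 CPM), and its log2 fold changes were -0.21, 0.11 and -0.02 in the 3 lines, with adjusted p of 0.503 to 0.98. Trim71 fell in every line, to 226.9 and 65.65 CPM in WT-H3.3, 213.6 and 85.76 CPM in H3.3K27M and 223.9 and 127.8 CPM in H3.3K27L, from WT-H3.3 ESC levels of 241.7 to 397.1 CPM. Its log2 fold changes were -1.36 ± 0.275 (adjusted p = 0.000106), -1.05 ± 0.266 (0.00108) and -1.14 ± 0.269 (0.000621). The fit of all libraries, with 1 Dox time term shared by the RA lines, was also read at each RA time. Read at 24 h, Trim71 passed in WT-H3.3 (-0.708, adjusted p = 0.0352) and not in H3.3K27M (-0.4063, adjusted p = 0.227) or H3.3K27L (-0.4897, adjusted p = 0.173). Read at 72 h it passed in all 3 lines (-2.003, -1.701 and -1.784). The step between the times is the same in each line by construction. The H3.3K27L call was also lost without the 24 h RA library (-0.8265, adjusted p = 0.148).

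Of the Igf2bp genes, Igf2bp2 fell modestly, from 132.8 to 219.6 CPM in WT-H3.3 ESCs to 94.02 and 110.3 CPM in RA. The log2 fold changes were -0.78 ± 0.213, -0.70 and -0.73 in WT-H3.3, then H3.3K27M and H3.3K27L (adjusted p = 0.00245, 0.00452 and 0.00393). Without 1 RA library these calls were lost, without the 72 h library in WT-H3.3 (-0.6249, adjusted p = 0.105) and without the 24 h library in H3.3K27M (-0.6485, adjusted p = 0.13) or H3.3K27L (-0.6283, adjusted p = 0.0993). Igf2bp1 was 607.4 to 830.9 CPM in WT-H3.3 ESCs and 723.5 and 1092 CPM in RA, so that only the 72 h library lay above the ESCs. Its log2 fold changes of 0.29, 0.42 and 0.30 had adjusted p of 0.197, 0.0563 and 0.181, and with replicate number fitted as a block H3.3K27M passed (0.4288, adjusted p = 0.0443), as it did without the first H3.3K27M ESC replicate at 4 h (0.0438), 8 h (0.0464), 24 h (0.0427) or 72 h (0.0172). With RLE size factors Igf2bp1 passed in all 3 lines, at log2 fold changes of 0.6204, 0.6769 and 0.6004. In H3.3K27L it also passed without the first ESC replicate at 72 h, the deep library of that time (0.5852, adjusted p = 0.00471). Igf2bp3 had no direction that held, at log2 fold changes of 0.01, 0.07 and -0.37 with adjusted p of 0.964, 0.679 and 0.0292 under TMM. In WT-H3.3 and H3.3K27M it passed as higher with RLE size factors (0.3396, adjusted p = 0.0305, and 0.323, 0.035) and with DESeq2 (0.3369, 0.011, and 0.3287, 0.00962). In H3.3K27L it stood at -0.07418 (0.671) and -0.0592 (0.7) in these fits. Its H3.3K27L call was also lost without the first ESC replicate at 4, 8 or 24 h (adjusted p of 0.0533 to 0.0576). The same was so without the RA library at 24 h (-0.2926) or 72 h (-0.4476).

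Myc and Mycn changed from ESCs by different amounts in the 3 lines, and the test of that difference, given below, passed for neither with all libraries. Myc in RA was 67.86, 72.43 and 49.39 CPM at 24 h in WT-H3.3, then H3.3K27M and H3.3K27L and 13.3, 19.84 and 9.385 CPM at 72 h, so that in WT-H3.3 the 24 h library lay above and the 72 h library below the ESC range of 19.72 to 52.69 CPM. Over both times its log2 fold changes from ESCs were -0.19 (adjusted p = 0.77), 1.00 ± 0.467 (0.0628) and -1.20 ± 0.538 (0.0555). Each of these values held a gap between the Dox times. Read at 24 h with the shared time term, Myc stood at 0.8978 in WT-H3.3 (adjusted p = 0.138), 2.091 in H3.3K27M (0.00055) and -0.1035 in H3.3K27L (0.906). Read at 72 h it stood at -1.285 (0.0705), -0.09133 (0.906) and -2.286 (0.00273). That term moves all 3 lines by the same step, so these values cannot show which time the value of a line came from. In H3.3K27M Myc passed in 6 of the 11 alternatives other than leaving out each library in turn. Replicate number fitted as a block was among them (1.112, adjusted p = 0.023). Myc also passed there without the first ESC replicate at 4 h (0.0189), 8 h (0.000909) or 24 h (0.00916). In H3.3K27L it passed in 3 of the 11 and without the second ESC replicate at 4 h (0.0364), 8 h (0.0408) or 24 h (0.0365). Mycn was 72.41 and 75.52 CPM in RA-treated WT-H3.3 cells, inside the ESC range of 70.92 to 106.7 CPM, and 124.2 and 149.9 CPM in H3.3K27L, above all its ESCs (0 to 102.5 CPM). It rose in H3.3K27L, with a log2 fold change of 0.66 ± 0.24 (adjusted p = 0.0194), a call lost without the RA library at 24 h (0.396) or 72 h (0.078). In WT-H3.3 and H3.3K27M its log2 fold changes were -0.26 (0.385) and -0.51 (0.0867), and in H3.3K27M it passed when the library of 68378 counts was left out of the model (-0.5252, adjusted p = 0.0432).

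Whether the response to RA differed between lines was tested directly as an interaction. None of the 10 genes passed for H3.3K27M, where 0.00607% of genes did, or for H3.3K27L, where 0.619% did. In H3.3K27M Myc stood at 1.19 ± 0.701 on the log2 scale, Lin28b at 0.76 ± 0.238 and Hmga2 at 0.75 ± 0.323, followed by Lin28a at 0.32, Trim71 at 0.30, Hmga1 at 0.26, Mycn at -0.24, Igf2bp1 at 0.13, Igf2bp2 at 0.07 and Igf2bp3 at 0.06. The adjusted p was 0.939 for Lin28b and 1 for the other 9. In H3.3K27L Myc stood at -1.001 ± 0.715 (adjusted p = 0.672), Mycn at 0.92 and Lin28b at -0.63, each of the last 2 with an adjusted p of 0.287, and Igf2bp3 at -0.38 (0.508). Trim71 at 0.22, Lin28a at 0.20, Hmga2 at 0.06, Hmga1 at 0.05, Igf2bp2 at 0.04 and Igf2bp1 at 0.01 had adjusted p of 0.929 to 1. Mycn passed without the first H3.3K27L ESC replicate at 72 h (4.052, adjusted p = 0.0338), which leaves the library with 0 Mycn reads as the only 72 h library of its group.

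**Figure D3:**
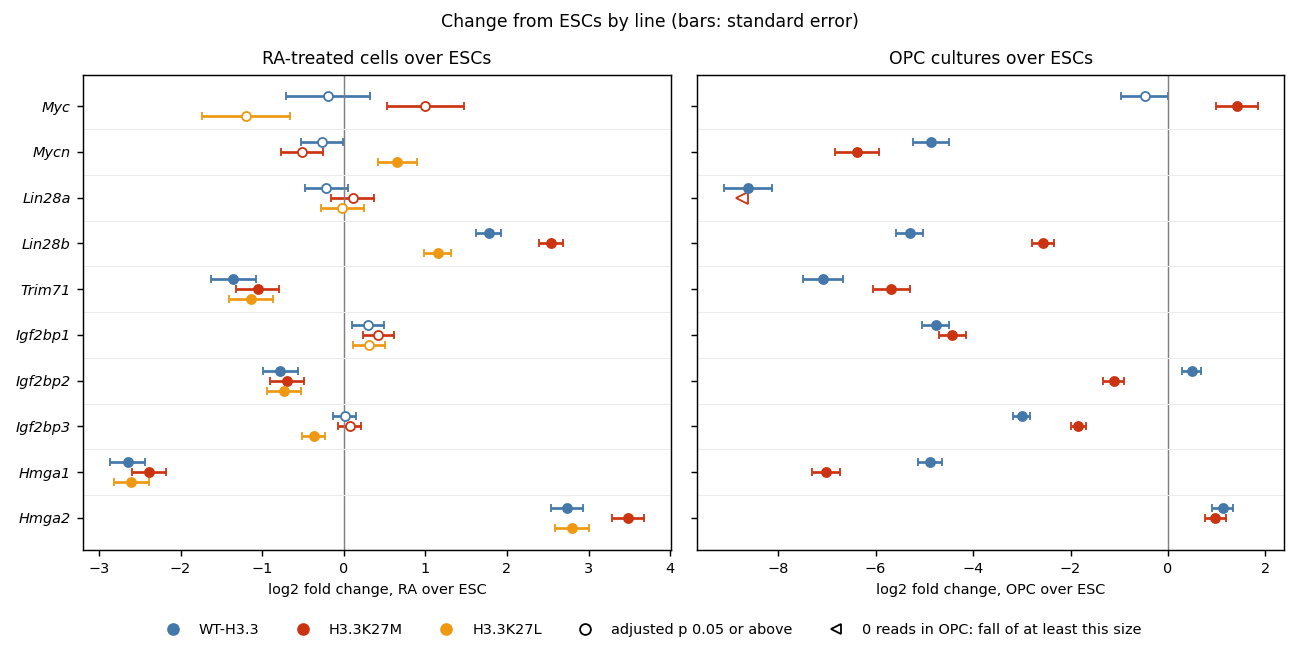
Log2 fold change of each gene from ESCs to RA-treated cells (left) and to OPC cultures (right) by line, with standard errors as bars, filled points for an adjusted p under 0.05 and a triangle for a lower bound. In RA, Hmga2 and Lin28b lie above 0 and Hmga1, Trim71 and Igf2bp2 below 0 in all 3 lines. In OPCs most genes lie far below 0, and the lines part most for Lin28b (-5.30 and -2.56) and Hmga1 (-4.88 and -7.02). In RA, open points of Igf2bp1, and those of Igf2bp3 in WT-H3.3 (0.3396) and H3.3K27M (0.323), turn to passing ones with RLE size factors.

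The lists of genes around the set were read against the 26.7% of all genes that rose and the 33.8% that fell with RA in WT-H3.3. Of 30 Myc target genes, most of them for ribosome assembly, 27 fell and 1 rose with RA in WT-H3.3, 26 fell and 2 rose in H3.3K27M, and 27 fell and 1 rose in H3.3K27L. Their median log2 fold change was -1.27, -1.21 and -1.30 against -0.184, -0.0628 and -0.123 over all genes. Odc1, which makes polyamines, fell by 2.38 on the log2 scale in WT-H3.3 (adjusted p = 6.8e-12), Tfrc, the transferrin receptor, by 2.24 (1.21e-11) and Bop1, a ribosome assembly factor, by 2.57 (4.49e-11), and Nme1 rose by 0.89 (0.000377). Of 18 Myc partners and regulators, 4 rose and 6 fell in WT-H3.3, close to the shares of all genes, among them Mxd4, a Max partner that opposes Myc (4.01, adjusted p = 4.56e-14), and Usp28, which deubiquitinates Myc (-2.26, adjusted p = 1.35e-10). Of 13 genes of microRNA processing, 2 rose and 5 fell, again close to those shares, with Khsrp at -1.84 (1.07e-06) and Tut4, which tags let-7 precursors together with Lin28a, at 0.94 (0.00498). Of 16 other let-7 targets tested, 7 rose and 4 fell, with Ccnd2 at 7.82 (1.62e-20) and Ccnd1, another cyclin of G1, at -2.10 (3.23e-07). Of 13 IGF and oncofetal genes tested, 9 rose and 2 fell, with H19 at 9.57 (3.95e-26), Peg3 at 4.65 (4.35e-20) and Dlk1 at 5.86 (4.95e-18), all of them imprinted genes of fetal growth.

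Within RA-treated cells H3.3K27M and WT-H3.3 were compared with Dox time as a term. None of the 10 genes passed, where 0.0163% of 12265 genes did (2 genes, against 755 at an unadjusted p under 0.05). Lin28b was higher in H3.3K27M at each time, 206.7 and 115.7 CPM at 24 and 72 h against 111.8 and 94.83 CPM in WT-H3.3, with a log2 fold change of 0.56 ± 0.173 (edgeR, adjusted p = 0.489). Mycn was 40.63 and 75.39 CPM in H3.3K27M against 72.41 and 75.52 CPM, a difference at 24 h alone, with a log2 fold change of -0.49 ± 0.208 (adjusted p = 0.79). Without the 72 h WT-H3.3 library each of them passed, Lin28b at 0.7243 (adjusted p = 0.00378) and Mycn at -0.7712 (adjusted p = 0.00472). The other 8 genes had log2 fold changes of -0.20 (Lin28a), -0.05 (Igf2bp1), 0.02 (Igf2bp3), 0.05 (Trim71), 0.10 (Igf2bp2), 0.20 (Myc), 0.23 (Hmga1) and 0.26 (Hmga2). Of the lists around the set, Dlk1, a paternally expressed ligand of fetal cells, alone passed, and it was higher in H3.3K27M by 1.35 ± 0.165 on the log2 scale (adjusted p = 0.015).

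H3.3K27L and WT-H3.3 differed for 2 of the 10 genes in RA, where 7.03% of genes passed. Mycn was higher in H3.3K27L, 124.2 and 149.9 CPM against 72.41 and 75.52 CPM, with no overlap and a log2 fold change of 0.85 ± 0.204 (edgeR, adjusted p = 0.0273). Lin28b was lower, 75.25 and 54.19 CPM against 111.8 and 94.83 CPM, again with no overlap, at -0.70 ± 0.178 (adjusted p = 0.0358). Neither change reached 2-fold. Mycn lost its call without the 24 h H3.3K27L library (adjusted p = 0.0855) and Lin28b without the 24 h (0.0986) or the 72 h one (0.0953), and both lost it when 24 and 72 h were pooled without a term for time (adjusted p = 1). Without the 24 h WT-H3.3 library 5 genes passed, with Lin28a at 0.5607 (adjusted p = 0.0272), Trim71 at 0.8128 (0.0015) and Hmga2 at -0.5995 (0.013) added, and Trim71 passed without the 24 h H3.3K27L library as well (0.7659, adjusted p = 0.0413). With all libraries Hmga2 stood at -0.47 (adjusted p = 0.136), Trim71 at 0.41 (0.279), Lin28a at 0.39 (0.181), Myc at -0.48 (0.219), Igf2bp2 at 0.24 (0.453), Igf2bp3 at -0.13 (0.713), Igf2bp1 at -0.09 (0.834) and Hmga1 at -0.09 (0.873).

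The H3.3K27L cells in RA also differed in markers. The summed pluripotency markers were 360 to 563.2 CPM in H3.3K27L against 198.2 to 292.1 CPM in WT-H3.3 and 197.2 to 253.2 CPM in H3.3K27M. Extraembryonic endoderm markers were 4754 to 19490 CPM in H3.3K27L against 2009 to 9141 CPM in WT-H3.3 and 1386 to 2603 CPM in H3.3K27M, and fibroblast markers 128.7 to 445.8 CPM against 585.2 to 647.5 CPM and 463.6 to 882.6 CPM. Neural markers were 109 to 210.1 CPM in H3.3K27L against 213.3 to 351.8 CPM in WT-H3.3, without overlap, and 186.2 to 540.8 CPM in H3.3K27M, and OPC markers 178 to 332.1 CPM against 75.09 to 172.7 CPM and 62.57 to 107.8 CPM. Between H3.3K27L and WT-H3.3, 3 of 7 pluripotency, 7 of 9 endoderm and 1 of 2 OPC markers tested were higher and 2 of 6 neural and 2 of 9 fibroblast markers lower, with none passing in the other direction. Their part in the values of Mycn and Lin28b was not tested. Of the IGF and oncofetal list, Igf2r rose by 2.28 (adjusted p = 3.18e-05) and the stem cell factor Sall4 by 1.12 (0.0109) on the log2 scale in H3.3K27L, while H19 fell by 5.32 (1.37e-07), Peg3 by 1.37 (0.00326) and Plagl1 by 0.96 (0.0369). In the lists of Myc partners, microRNA processing, let-7 targets and Myc targets at most 1 gene passed in a direction, namely Fbxw7 (-0.75), Dicer1 (-0.65), Thbs1 (-0.89), Tfrc (-0.76) and Ldha (0.86).

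Within RA-treated cells more of the 10 genes changed with time than with line, as was so over all genes. Of all genes 0.0163% (H3.3K27M) and 7.03% (H3.3K27L) passed with line, and 69.4% with time. The test of time also used more libraries a side than the tests of line. Between 24 and 72 h, 8 of the 10 genes passed, 3 higher and 5 lower, where 69.4% of genes did (33.2% higher and 36.2% lower). Myc fell from 67.86, 72.43 and 49.39 CPM to 13.3, 19.84 and 9.385 CPM in WT-H3.3, then H3.3K27M and H3.3K27L, with no overlap between the times (log2 fold change -1.92 ± 0.179, edgeR, adjusted p = 1.17e-06). Hmga1 fell alongside, by 1.80 ± 0.175 (1.69e-06), Trim71 by 1.04 ± 0.167 (0.000125) and Igf2bp3 by 0.72 ± 0.13 (0.000313), each lower at 72 h in all 3 lines. Igf2bp1 rose in all 3 lines, from 723.5, 707.8 and 628.7 CPM to 1092, 1121 and 1131 CPM (0.95 ± 0.143, adjusted p = 7.7e-05), as did Igf2bp2, by 0.72 ± 0.133 (0.00037). The weaker calls depended on single libraries. Mycn rose by 0.66 ± 0.167 (0.00377), a call lost without either H3.3K27M library (0.3794, adjusted p = 0.124, without 24 h and 0.3957, adjusted p = 0.114, without 72 h). Lin28a fell by 0.33 ± 0.133 (0.0402), and its call was lost with RLE size factors (0.0593), with DESeq2 (0.0861) and without any library but that of H3.3K27L at 24 h (0.0761 to 0.199). Lin28b stood at -0.28 ± 0.143 (0.0954) and passed without either WT-H3.3 library (adjusted p = 0.00386 and 0.0106), and Hmga2 stood at 0.19 ± 0.141 (0.255). Changes between the times also ran with gene length (Spearman rho = -0.333 across genes, which are not independent replicates). With that trend removed Lin28a no longer passed (-0.25, adjusted p = 0.115), Hmga2 passed (0.6291, adjusted p = 0.00175), Lin28b turned to 0.2971 (0.084), Igf2bp1 went to 1.552 and Igf2bp2 to 1.193. The remaining 5 genes kept their direction and passed, Myc at -2.036, Hmga1 at -2.205, Trim71 at -0.7254, Igf2bp3 at -0.4962 and Mycn at 0.7025. Since the library kit, 3′ or whole-mRNA, is not on record for each library, a change between 24 and 72 h cannot be told apart from a change of kit for any of these genes.

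Of the 13 microRNA processing genes, 9 fell and none rose between 24 and 72 h of RA, where 36.2% and 33.2% of all genes did, with Khsrp at -2.71 (adjusted p = 1.69e-08), Tarbp2 at -3.53 (3.2e-07) and Dgcr8 at -1.42 (2.9e-06). The median of this list was -0.829 against -0.0733 over all genes. Of 18 Myc partners and regulators 4 rose and 11 fell, with Max, the obligate partner of Myc, at 1.504 (8.11e-07) and Trrap, a Myc cofactor, at -1.73 (4.07e-07). Of 30 Myc targets 11 rose and 10 fell, with Nme1 at 2.84 (9.38e-09) and Odc1 at -2.61 (1.17e-08). Of 16 let-7 targets tested 6 rose and 7 fell, and of 12 IGF and oncofetal genes 3 rose and 7 fell, Igf2 itself by -5.96 (9.95e-08).

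The OPC cultures were checked against their label before the growth genes were read. The summed level of 10 OPC markers was 889.8 to 900.6 CPM in WT-H3.3 and 2510 to 2932 CPM in H3.3K27M, against 38.35 to 48.09 CPM in WT-H3.3 ESCs. Against WT-H3.3, 7 of the 9 markers tested were higher in H3.3K27M and 2, Pdgfra and Sox10, were lower. The lineage factors Olig2 and Olig1 made up most of the sum, with means of 318.5 and 166.7 CPM in WT-H3.3 and 1051 and 662.7 CPM in H3.3K27M. The defining OPC surface marker Pdgfra averaged 20.37 CPM in WT-H3.3 and 0.7156 CPM in H3.3K27M, and Sox10 averaged 2.784 and 0.3538 CPM. Cspg4, the NG2 proteoglycan of OPCs, went the other way, at 9.93 CPM in WT-H3.3 and 90.64 CPM in H3.3K27M, as did Ptprz1 (218.7 and 505.9 CPM) and Bcan (116.6 and 302.7 CPM). The H3.3K27M cultures thus held most OPC markers at higher levels than WT-H3.3, with Pdgfra and Sox10 near 0. Fibroblast markers were 655.3 to 700.9 CPM in WT-H3.3 and 28.13 to 32.53 CPM in H3.3K27M (1 of 10 at 0), extraembryonic endoderm markers 570.1 to 681.3 and 45.49 to 56.63 CPM (1 of 10 at 0), astrocyte markers 906.1 to 910.1 and 982.2 to 1382 CPM, and neural markers 784.7 to 812.6 and 586.7 to 594.8 CPM. Astrocyte and neural markers went both ways in H3.3K27M, 3 higher and 3 lower of 6 tested (median log2 fold change -0.674) and 3 higher and 4 lower of 8. Of 10 fibroblast markers 9 were lower and 1 higher, and all 7 endoderm markers tested were lower. Col1a1, a collagen of fibroblasts, averaged 171.5 CPM in WT-H3.3 and 3.551 CPM in H3.3K27M. Pou5f1 was 0 in both, but the 11 pluripotency markers summed to 336.6 to 364.4 CPM in WT-H3.3 and 291.4 to 322.7 CPM in H3.3K27M. Of the 11, 4 and 5 were at 0. Of the 4 tested between the lines, 2 were higher and 2 lower in H3.3K27M. The part of these cell types in the differences between the OPC lines below was not tested.

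**Figure D4:**
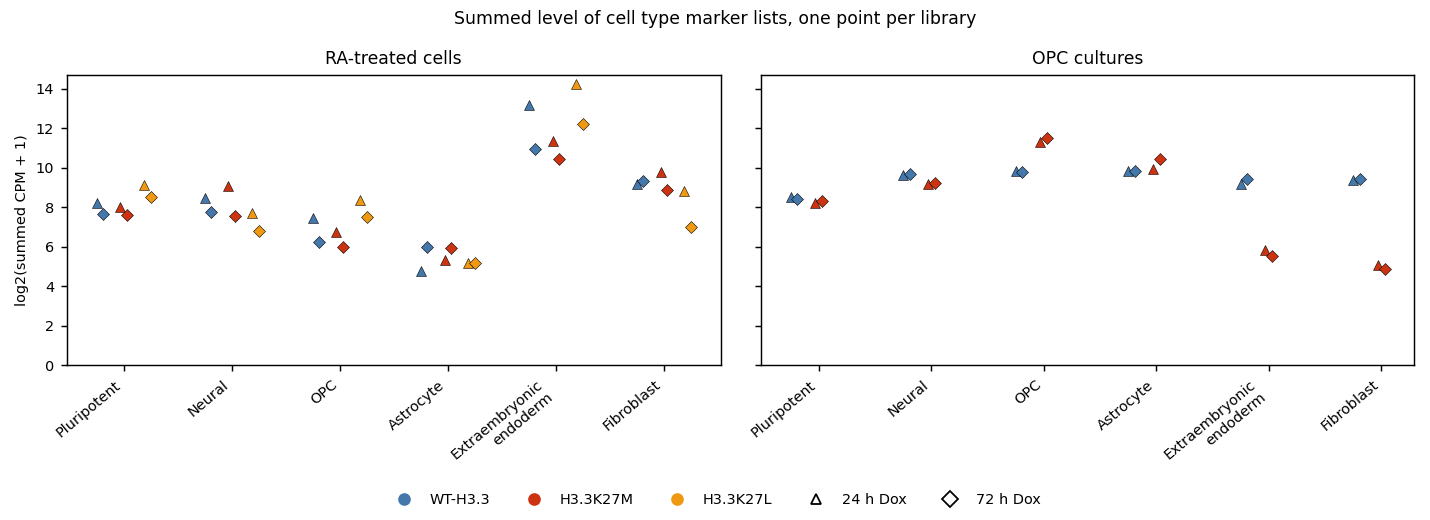
Summed level of 6 cell type marker lists as log2(summed CPM + 1), 1 point per library, in RA-treated cells (left) and OPC cultures (right). In OPC cultures the fibroblast and extraembryonic endoderm lists are high in WT-H3.3 and low in H3.3K27M, and the OPC list is higher in H3.3K27M.

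Most of the growth genes were far below their ESC levels in OPCs. Of the 10, 9 passed in WT-H3.3 (7 lower, 2 higher), where 80.2% of genes passed (42.4% lower, 37.8% higher), and 10 passed in H3.3K27M (8 lower, 2 higher), where 78.1% did (43.2% lower, 34.9% higher). RLE size factors raised the median of all genes by 0.343 and 0.362 on the log2 scale here and changed none of these calls. Lin28a gave 3 and 10 reads in the WT-H3.3 OPC libraries (0.276 and 1.074 CPM, against 186.4 to 315.9 CPM in ESCs), with a log2 fold change of -8.62 ± 0.5 (edgeR, adjusted p = 2.61e-15). It gave 0 reads in each H3.3K27M OPC library, which allows up to 3 counts or 0.4436 CPM at 24 h and 0.4199 CPM at 72 h, so that it was at least 430.8-fold lower than the ESC mean of 191.1 CPM. At this depth no difference in Lin28a between the OPC lines could be read.

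Trim71 kept 0.742% of its ESC mean in WT-H3.3 OPCs and 1.94% in H3.3K27M OPCs (log2 fold changes -7.08 ± 0.412 and -5.68 ± 0.379). Mycn kept 3.42% and 1.16% (-4.87 ± 0.367 and -6.38 ± 0.445), Hmga1 3.374% and 0.7585% (-4.88 ± 0.245 and -7.02 ± 0.293), and Igf2bp1 3.675% and 4.621% (-4.77 ± 0.28 and -4.43 ± 0.276). Lin28b kept 2.40% and 16.14% (-5.30 ± 0.285 and -2.56 ± 0.224), and Igf2bp3 12.47% and 27.96% (-3.00 ± 0.175 and -1.84 ± 0.161). All of these genes passed in both lines. Hmga2 was the exception that rose in both, from 58.97 to 96.39 CPM to 154.7 and 155.6 CPM in WT-H3.3 (1.12 ± 0.213, adjusted p = 2.25e-05) and from 37.0 to 73.04 CPM to 88.27 and 117.1 CPM in H3.3K27M (0.97 ± 0.218, adjusted p = 0.000211). Igf2bp2 rose in WT-H3.3, by 0.49 ± 0.19 (0.0211), and fell in H3.3K27M, by 1.11 ± 0.215 (3.3e-05). The WT-H3.3 call was lost against the 24 and 72 h ESCs alone (0.3629, adjusted p = 0.119) and without the first ESC replicate at 4, 8 or 24 h or either OPC library (adjusted p of 0.0507 to 0.192). Myc stood at -0.48 ± 0.476 in WT-H3.3 (adjusted p = 0.356) and rose in H3.3K27M, by 1.41 ± 0.432 (0.00418), from a median of 22.68 CPM in ESCs to 55.0 and 44.37 CPM. These H3.3K27M ESCs held 10.49, 3.664 and 5.118 CPM in the second replicate at 4, 8 and 24 h, against 31.9, 30.9 and 23.03 CPM in the first. Both OPC libraries lay above all H3.3K27M ESC libraries (3.664 to 31.9 CPM).

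H3.3K27M and WT-H3.3 OPC cultures differed for 8 of the 9 genes tested, 4 higher and 4 lower, where 51.5% of 12511 genes passed (25% higher and 26.5% lower). Lin28b, Trim71, Igf2bp3 and Myc were higher in H3.3K27M and Hmga1, Mycn, Igf2bp2 and Hmga2 lower. With 1 library for each line and time, the spread behind these tests is that between the 24 and 72 h libraries of a line.

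Lin28b had the largest rise. It gave 7 and 8 reads in WT-H3.3 (0.6439 and 0.859 CPM at 24 and 72 h) and 25 and 38 reads in H3.3K27M (3.696 and 5.318 CPM), with no overlap, at a log2 fold change of 2.58 ± 0.442 (edgeR, adjusted p = 0.00062). Igf2bp3 was 17.02 and 21.91 CPM in WT-H3.3 and 44.21 and 43.81 CPM in H3.3K27M (1.19 ± 0.183, adjusted p = 0.000313). Myc was 22.63 and 27.49 CPM in WT-H3.3 and 55.0 and 44.37 CPM in H3.3K27M (1.00 ± 0.184, adjusted p = 0.00103), which at 1.996-fold fell just short of the threshold of 2-fold. None of the 3 overlapped between lines. Trim71 rested on few reads, 18 and 29 in WT-H3.3 (1.656 and 3.114 CPM) and 40 and 36 in H3.3K27M (5.914 and 5.038 CPM), and its log2 fold change of 1.22 ± 0.386 (adjusted p = 0.0212) did not pass with DESeq2 (0.0694), without the 24 h WT-H3.3 library (0.213) or without the 24 h H3.3K27M library (0.0562).

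Among the genes that were lower, Hmga1 was 11.31 and 10.31 CPM in WT-H3.3 and 1.626 and 3.359 CPM in H3.3K27M (11 and 24 reads), at -2.10 ± 0.336 (edgeR, adjusted p = 0.000407). Igf2bp2 was 263.4 and 227.4 CPM against 79.4 and 91.81 CPM, at -1.51 ± 0.136 (6.7e-06), and Hmga2 was 154.7 and 155.6 CPM against 88.27 and 117.1 CPM, at -0.59 ± 0.148 (0.00644). The lines did not overlap in any of these. Mycn was 2.208 and 3.973 CPM in WT-H3.3 (24 and 37 reads) and 1.035 and 0.8397 CPM in H3.3K27M (7 and 6 reads), at -1.69 ± 0.505 (0.016), and did not pass with DESeq2 (0.0666), without the 72 h WT-H3.3 library (0.24) or without the 72 h H3.3K27M library (0.0684). Igf2bp1 alone of those tested did not pass, with 22.91 and 30.5 CPM against 32.23 and 29.25 CPM (0.21 ± 0.194, adjusted p = 0.386). Within 2 of the families the members thus parted, with Igf2bp3 higher, Igf2bp2 lower and Myc higher, Mycn lower, the last with the limits given.

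**Figure D5:**
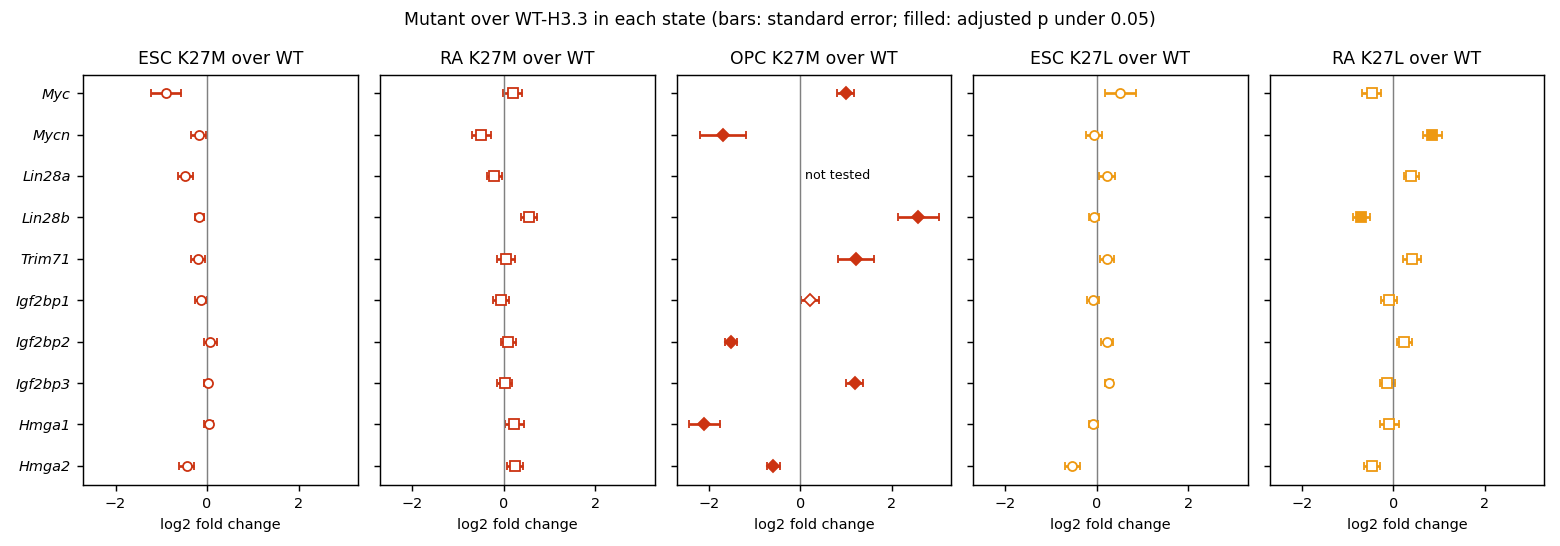
Log2 fold change of each gene, mutant over WT-H3.3, within ESCs, RA-treated cells and OPC cultures, with standard errors as bars and filled points for an adjusted p under 0.05. No gene passes in ESCs, Mycn and Lin28b pass in RA with H3.3K27L, and 8 of 9 pass in OPCs with H3.3K27M.

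The change from ESCs to OPCs was compared between H3.3K27M and WT-H3.3 as an interaction, which 6 of the 10 genes passed, where 21.3% of genes did (9.22% higher and 12% lower). H3.3K27M OPCs lay higher relative to their ESCs for Lin28b, by 2.74 ± 0.361 on the log2 scale (edgeR, adjusted p = 1.35e-06), for Igf2bp3 by 1.17 ± 0.206 (9.25e-05), for Myc by 1.89 ± 0.664 (0.0403) and for Trim71 by 1.40 ± 0.468 (0.0308). The Myc value takes in the lower level of H3.3K27M ESCs, a difference that did not pass (-0.90, adjusted p = 0.296), beside 1.00 within OPCs. They lay lower for Hmga1, by -2.14 ± 0.318 (8.47e-06), and for Igf2bp2, by -1.60 ± 0.283 (9.99e-05). Mycn stood at -1.51 ± 0.581 (0.0637). It passed with replicate number fitted as a block (-1.49, adjusted p = 0.0433), with DESeq2 (-1.506, 0.0342), without the filter (-1.537, 0.016) and without the library of 68378 counts (-1.484, 0.0354). Without the 24 h WT-H3.3 OPC library it stood at -1.905. Hmga2 (-0.15, adjusted p = 0.873) and Igf2bp1 (0.33, adjusted p = 0.505) did not pass. Lin28a, with 0 reads in both H3.3K27M OPC libraries, has no fitted value that can be read as a size. Its adjusted p was 0.0827, and it passed with DESeq2 (0.0344) and without the filter (0.0161), each time lower in H3.3K27M. These calls rest on 3 and 10 reads in the WT-H3.3 OPC libraries against 0, too few to read a difference between the OPC lines. Lin28b, Hmga1, Igf2bp3 and Igf2bp2 kept their calls under every alternative run. Myc lost its call in 11 alternatives, with DESeq2 (0.0589), with the 24 and 72 h ESCs alone (0.107), with the compared groups alone (0.0883), without any OPC library (0.0742 to 0.19) and without 4 ESC libraries in turn, WT-H3.3 replicate 2 at 4 and 24 h, WT-H3.3 replicate 1 at 72 h and H3.3K27M replicate 1 at 72 h (0.0509 to 0.0556). Trim71 lost its call without the 24 h WT-H3.3 OPC library (0.286) and without either H3.3K27M OPC library (0.132 and 0.0719). In RA-treated cells the same interaction had passed for none of the 10.

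The genes around the set in OPCs gave a mixed picture between the lines, read against the 25% of all genes that were higher and the 26.5% that were lower in H3.3K27M. Of 18 Myc partners and regulators, 6 were higher and 3 lower in H3.3K27M, with Skp2, a ubiquitin ligase subunit of the cell cycle, at 2.12 (adjusted p = 1.18e-05), Mycl, a relative of Myc, at 1.998 (7.54e-05) and Mxd1, a Max partner that opposes Myc, at -1.17 (0.000466). Of 30 Myc targets 8 were higher and 3 lower, with a median of 0.0485 against 0.00155 over all genes. Shmt2, a mitochondrial enzyme of folate metabolism, stood at 1.90 (1.86e-06), Tfrc at 1.33 (6.1e-05) and Cdk4 at 1.00 (0.000306), against Gnl3 at -0.89 (0.00016), Nop58 at -0.53 (0.00429) and Eif4e at -0.47 (0.00927), the first a nucleolar protein of stem cells. Of 12 microRNA processing genes 7 were higher and 2 lower, with Khsrp at 1.26 (0.000265), Ago1 at 0.89 (0.000615) and Dis3l2, the nuclease that degrades tagged let-7 precursors, at 1.32 (0.00135), against Ago3 at -0.99 (0.000274) and Xpo5 at -0.84 (0.000277).

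The let-7 targets outside the set went both ways, 4 higher and 4 lower of 15 tested, close to the shares of all genes (25% higher and 26.5% lower). Cdc25a, a phosphatase of the cell cycle, stood at 1.32 (adjusted p = 4.41e-05), Plagl2 at 0.98 (0.00995) and Ccnd1 at 0.58 (0.00791), and Thbs1, an extracellular matrix protein, at -4.32 (7.94e-07), Arid3b at -3.31 (0.000371) and Arid3a at -1.24 (0.00326). Of 10 IGF and oncofetal genes tested none was higher and 6 were lower, with a median of -2.03. Dlk1 fell from 139.7 to 204.1 CPM in WT-H3.3 to 6.949 to 7.978 CPM in H3.3K27M (-4.52 ± 0.233, adjusted p = 2.01e-07), and H19 from 108.2 to 164.3 CPM to 5.178 to 9.019 CPM (-4.26 ± 0.283, adjusted p = 7.94e-07), with Plagl1 at -2.50 (5.93e-06). These genes were lower together with the fibroblast and endoderm markers given above. From ESCs to OPCs the 30 Myc targets were mostly lower in both lines, 24 lower and 3 higher in WT-H3.3 and 24 lower and 2 higher in H3.3K27M. Of all genes, 42.4% were lower and 37.8% higher in WT-H3.3, and 43.2% lower and 34.9% higher in H3.3K27M. Odc1 stood at -4.47 (1.46e-17) and -4.40 (2.64e-17).

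The genes most like each member over the 42 libraries were named by Pearson's r of log2(CPM + 1), as a description, since all share these libraries and the gap between states. Lin28a was followed most closely by Sall4 (r = 0.977), Spint1 (0.976) and Phf17 (0.967), and Igf2bp1 by Nr6a1 (0.967), Lin28a (0.958) and Sall4 (0.954). Trim71 ran with Rqcd1 (0.972), Fam169a (0.970) and Bcar3 (0.969), and Hmga1 with Qars (0.985), Zfp7 (0.982) and Amd1 (0.981). Lin28b was nearest to Zc3hav1l (0.904), Rec8 (0.898) and Dock11 (0.897), and Hmga2 to Tmem150a (0.943), Lrfn4 (0.942) and Usp27x (0.932). Mycn was nearest to Nckap1l (0.943), Pfkfb1 (0.942) and Ptgis (0.938), and Igf2bp3 to Alpk3 (0.932), Mastl (0.931) and Fbxl19 (0.931). Igf2bp2, with Upf2 (0.856), 2610101N10Rik (0.844) and Rpl24 (0.822), and Myc, with Zfp532 (0.725), 6330407J23Rik (0.721) and 2010321M09Rik (0.693), had no gene as close, Myc least of the 10.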

How the data were processed

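RNA-seq gene counts of 42 libraries were analysed, as raw counts that the authors deposited for ESCs, RA-treated cells and OPCs. Per the submitters' processing notes, reads were aligned with STAR 2.7.1 to mm9, and the counting tool is not given in the sources used here. Libraries were grouped by the line, treatment and Dox time in their labels, and no column of the tables was left over (0). The 2 OPC libraries at 72 h were matched to their groups by line and time, since the replicate number in the label and in the table differ. Identifiers without version were matched to NCBIM37 symbols for 32589 of 55471 genes (98.17% of counts), and 1435 genes of chromosome 8 (5.777% of counts) were left out, as in the study. The ChIP-seq data were not analysed here. The authors used DESeq2 with a threshold of an adjusted p under 0.05 and a 2-fold change.

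The main test was edgeR 4.0.16 (quasi-likelihood F test, TMM, filterByExpr, Benjamini-Hochberg over all genes tested) in R 4.3.3, in 16 comparisons. ESCs were fitted with 1 mean per group and time, RA-treated cells with line and Dox time, OPCs with line, and changes between states in 1 model of all 42 libraries. Standard errors were derived from the log2 fold change and its F. CPM used TMM factors of all 42 libraries, and correlations used a pseudocount of 1 CPM. A count of 0 was given an upper limit of 3 counts, which covers counting error only. ESC replicates were made weeks apart, while RA and OPC groups had 1 library a time, and p-values measure only the spread between these libraries. On simulated counts with a log2 change of 1.5 in 200 genes, edgeR recovered 96.5% in ESCs (14076 genes), 84.5% in RA-treated cells (12265), 88% in OPCs (12511), and 67% for RA against ESCs and 53.5% for the RA interaction (16478). No pair of libraries was a copy.

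The members and lists were chosen with earlier results of these data known. All 10 members are named in each comparison, and of the other lists up to 3 genes a direction with the lowest adjusted p. The marker genes Olig1, Olig2, Pdgfra, Sox10, Cspg4, Ptprz1, Bcan, Col1a1 and Pou5f1 were named after their values were seen, and 1 marker list is not reported here. In ESCs, same-numbered libraries of WT-H3.3 and H3.3K27M deviated together from their group means at every time (r of 0.614 to 0.718), so the numbers pair these lines. For H3.3K27L (-0.689 to 0.264) and GSK343 (-0.462 to 0.588) they do not. The main ESC test did not use the pairing, and the replicate block was 1 term over all ESC libraries, H3.3K27L and GSK343 included. Alternatives were RLE size factors, DESeq2 1.42.0, no filter on low counts, chromosome 8 kept, a replicate block, a crossed block for H3.3K27L, no term for RA time, 24 and 72 h ESCs alone, the compared groups alone and leaving out each library. Leaving out the shallowest library, reading each RA time from the shared time term and removal of a gene length trend were added after the data were seen. Mature let-7 and promoters came from RefSeq, 3′UTRs from GENCODE vM1. Python 3.11.15, pandas 2.3.3, NumPy 2.4.6 and matplotlib 3.10.9 were also used.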

Additional observations from a re-analysis of the deposited data

Results flagged for a closer look

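In groups of 8 libraries, a library that lay apart from the others by more than Dixon's critical value for that number was marked, which chance alone does in about 1 in 20 groups. The H3.3K27L ESC library at 72 h (replicate 2), of 68378 counts, was marked for 6 of the 10 genes, with 0 CPM of Mycn, 0 CPM of Hmga2, 230.6 CPM of Igf2bp1, 461.3 CPM of Igf2bp2, 135.7 CPM of Hmga1 and 81.4 CPM of Trim71. The other 7 libraries of that group averaged 409.8 ± 61.75 CPM of Trim71 (SD, n = 7). Trim71 was also marked in H3.3K27M ESCs at 72 h (replicate 2), at 162.9 CPM in a group with a median of 291.6 CPM.

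The change from ESCs to OPCs differed between H3.3K27M and WT-H3.3 for 6 genes by the interaction term (edgeR, adjusted p under 0.05). On the log2 scale the difference was 2.742 for Lin28b, 1.89 for Myc, 1.401 for Trim71, 1.166 for Igf2bp3, -1.596 for Igf2bp2 and -2.143 for Hmga1. The value of Myc takes in its lower level in H3.3K27M ESCs (-0.90, edgeR, adjusted p = 0.296). The WT-H3.3 cultures also held more of the fibroblast and extraembryonic endoderm markers (655.3 to 700.9 and 570.1 to 681.3 CPM, against 28.13 to 32.53 and 45.49 to 56.63 CPM in H3.3K27M), and the part of these cells in the differences was not tested.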

How the results depend on the processing

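Over the single genes, 2862 of 3101 values were counted as the same under an alternative. These passed in both fits in 1 direction, or passed in neither and moved by no more than the main standard error, whatever their sign. Of the others, 80 passed only under the alternative, 67 passed only in the main fit and 89 passed in neither and moved by more than that. Changes of sign without a pass in either fit were not counted as reversed. The 3 that reversed with a pass in either fit are all Igf2bp3 in RA-treated cells against ESCs. Read at 72 h with the shared RA time term, it stood at -0.4695 in WT-H3.3 (adjusted p = 0.0138) and -0.41 in H3.3K27M (0.03). Read at 24 h it stood at 0.111 in H3.3K27L (0.591). The number of the 10 genes that passed went from 0 to 3 in H3.3K27M ESCs without the filter on low counts. In H3.3K27L ESCs it went from 0 to 2 without that filter, to 1 with RLE size factors, to 1 with chromosome 8 kept, to 1 with the replicate block and to 2 with the crossed block, where H3.3K27L numbers were swapped at 4, 8 and 24 h. It went from 2 to 0 for H3.3K27L in RA without a term for time and from 5 to 8 for H3.3K27M in RA against ESCs with DESeq2. For H3.3K27L in RA against ESCs it went from 7 to 4 when read at 24 h with the shared RA time term. Why these counts moved was not tested.

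Leaving out 1 library at a time, the number passing was 0 to 1 in H3.3K27M ESCs, 0 to 1 in H3.3K27L ESCs, 0 to 0 with GSK343 and 0 to 0 over Dox time. It was 0 to 2 for H3.3K27M and 1 to 5 for H3.3K27L in RA, 6 to 8 between RA times and 7 to 7 in OPCs. Against ESCs it was 4 to 5, 4 to 7 and 3 to 8 for RA in WT-H3.3, then H3.3K27M and H3.3K27L, and 8 to 9 and 10 to 10 for OPCs in WT-H3.3 and H3.3K27M. The interactions gave 0 to 0 and 0 to 1 in RA (H3.3K27M and H3.3K27L) and 4 to 6 in OPCs. Where 1 library remained at a time or in a group, it was assumed to vary like the others.

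The replicate block was fitted for 129 values and changed 4 calls, Hmga2 in H3.3K27L ESCs (-0.5942, adjusted p = 0.00549), Myc and Igf2bp1 in H3.3K27M in RA against ESCs and Mycn in the OPC interaction. In GSK343 ESCs the libraries share only a number, and in H3.3K27L the crossing of numbers is a hint from the data and not from the labels. Reads limit Mycn, Trim71, Lin28b and Lin28a in OPCs, where a library held 0 to 40 of them, and a single library for each line and time limits RA and OPC comparisons. The counts over the lists of other genes were computed with TMM only.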

Other observations

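Lin28b in ESCs was also read as the ratio of 72 h to 4 h of Dox within a replicate number, as values without a test. It was 2.026 and 2.002 in the 2 replicates of WT-H3.3, 1.95 and 1.524 in H3.3K27M and 2.334 and 2.835 with GSK343, so all 6 of these series ended above their start. In the first replicate of H3.3K27L it was 0.7863, and the second replicate of that line ends in the library of 68378 counts. Hmga2 gave ratios of 1.524 and 1.301 in WT-H3.3, 1.358 and 1.218 in H3.3K27M, 1.747 and 1.736 with GSK343 and 0.6189 in the first replicate of H3.3K27L. The H3.3K27L line thus stood alone in both genes, in 1 replicate, and no test of this difference was made.

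In ESCs the imprinted genes of the IGF and oncofetal list differed between H3.3K27L and WT-H3.3 (edgeR), with Peg3 lower by -1.33 on the log2 scale (adjusted p = 6.66e-07), H19 by -2.92 (4.78e-06) and Dlk1 by -2.12 (0.000999). H19 was 1.145 to 2.04 CPM in WT-H3.3 and 0 to 0.5735 CPM in H3.3K27L ESCs, and 1175 to 1440 CPM and 32.39 to 32.45 CPM in RA, without overlap in either state. In all, 4 of 11 genes of the list tested were lower and none higher in H3.3K27L ESCs, where 8.11% of genes passed, and none passed in H3.3K27M or with GSK343. Of 30 Myc targets Mrto4 alone passed in H3.3K27L ESCs (-0.51, adjusted p = 0.0454).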
